A study of Homo sapiens with 21 samples.

Results

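The genes described here encode 10 secreted peptides: GIP, GAST, CCK, SCT, NTS, MLN, TAC1, GNRH2, VIP and TRH. They were taken from a count table of 62700 genes by matching each gene identifier to its symbol, whatever its level, and all 10 were found. RNA was sequenced from islets differentiated from H1, an established human embryonic stem cell line. The labels give 4 genotypes: unedited cells (WT) and cells labelled ISL1-/-, PAX6-/- or PDX1-/-, each with both copies of a pancreatic transcription factor gene knocked out. All cells were infected on day 11 with a lentivirus for either BFP, a blue fluorescent protein, or ISL1 joined to BFP through an internal ribosome entry site, so the controls carry a virus too. Cells positive for BFP were taken by flow cytometry on day 18. The 21 libraries form 8 groups, of which BFP-infected WT, ISL1-infected WT and ISL1-infected PDX1-/- cells have 2 libraries each and the other 5 have 3. Per the series' design text these are biological replicates. Whether each knockout line is 1 clone is not given in the sources used here. The groups are called BFP-labelled and ISL1-labelled below, because the ISL1 counts did not separate them.

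Enteroendocrine cells of the gut lining release peptide hormones in response to a meal. Gastrin (GAST) drives acid secretion in the stomach, cholecystokinin (CCK) gallbladder contraction and pancreatic enzyme release, secretin (SCT) bicarbonate secretion, and GIP is an incretin that raises insulin secretion. Each is made as a longer precursor, cut by prohormone convertases and read by a G protein-coupled receptor, and several of the genes, GAST and CCK among them, are known to be active for a time in the developing pancreas.

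Libraries held 36807615 to 60199880 counts. ISL1, the gene targeted in 1 line and carried by 1 of the viruses, had 306 to 518 CPM (counts-per-million, with library sizes scaled by TMM factors) in BFP-labelled WT libraries and 337 to 361 in ISL1-labelled ones. In ISL1-/- cells it had 73.7 to 82.4 CPM with the BFP label and 71.5 to 96.7 with the ISL1 label. PAX6 had 99.5 to 166 CPM in BFP-labelled PAX6-/- libraries, against 140 to 232 in WT, and PDX1 had 103 to 116 in BFP-labelled PDX1-/- libraries, against 80.0 to 102 in WT, so counts over these genes did not check either label. INS, insulin, had 5648 to 7182 CPM and GCG, glucagon, 36229 to 51294 in BFP-labelled WT libraries. ISL1-labelled PDX1-/- replicate 4 and ISL1-labelled PAX6-/- replicate 3 stood apart from the rest. Mitochondrial genes took 3.84% and 3.16% of their counts, against 1.28% to 1.93% in the other libraries. Replicate 4 had 25600 CPM of INS where replicate 2 of its group had 164. Results that rest on either library are given with and without it.

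The 250 bases before the transcription start are shown for the genes that carry the genotype differences (GIP, GAST, CCK and GNRH2) and the vector difference (NTS). Sequences are from RefSeq on GRCh38.p14, written 5′ to 3′ on the gene's strand. PAX6, PDX1 and ISL1 are homeodomain proteins, whose shared core motif is TAAT, and capitals mark each match to TAAT on either strand (ATTA is the same motif read on the other strand). The RefSeq table matched 9 of the 10 genes, all but SCT, and lists 2 starts for CCK, of which the upstream one is shown.
GIP, chr17:48968597-48968846, minus strand: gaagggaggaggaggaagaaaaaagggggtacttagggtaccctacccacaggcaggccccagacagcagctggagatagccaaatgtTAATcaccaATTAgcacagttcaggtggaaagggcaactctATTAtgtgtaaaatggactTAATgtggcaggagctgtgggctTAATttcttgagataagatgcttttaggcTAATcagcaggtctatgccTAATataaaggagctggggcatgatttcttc
GAST, chr17:41712081-41712330, plus strand: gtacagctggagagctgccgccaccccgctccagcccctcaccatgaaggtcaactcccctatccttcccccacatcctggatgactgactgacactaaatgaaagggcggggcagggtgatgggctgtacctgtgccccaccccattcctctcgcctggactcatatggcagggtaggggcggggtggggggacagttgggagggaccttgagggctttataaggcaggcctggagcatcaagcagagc
CCK, chr3:42266186-42266435, minus strand: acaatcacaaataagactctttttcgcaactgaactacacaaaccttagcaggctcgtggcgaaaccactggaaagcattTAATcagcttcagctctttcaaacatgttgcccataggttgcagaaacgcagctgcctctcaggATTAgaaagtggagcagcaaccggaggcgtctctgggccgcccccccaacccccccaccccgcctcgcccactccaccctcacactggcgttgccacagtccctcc
GNRH2, chr20:3043372-3043621, plus strand: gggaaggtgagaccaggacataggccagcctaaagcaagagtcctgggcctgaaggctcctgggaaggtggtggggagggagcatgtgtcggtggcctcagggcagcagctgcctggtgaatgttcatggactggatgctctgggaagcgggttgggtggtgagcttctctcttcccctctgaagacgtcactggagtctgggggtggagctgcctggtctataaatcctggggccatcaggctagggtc
NTS, chr12:85874045-85874294, plus strand: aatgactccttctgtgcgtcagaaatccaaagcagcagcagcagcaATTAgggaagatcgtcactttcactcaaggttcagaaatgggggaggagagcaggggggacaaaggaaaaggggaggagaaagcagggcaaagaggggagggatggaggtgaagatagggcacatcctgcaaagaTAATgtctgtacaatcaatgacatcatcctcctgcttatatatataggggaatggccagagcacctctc

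GIP holds 7 matches to TAAT, and 2.12% of the 35116 RefSeq promoters of this length hold as many. CCK and NTS hold 2 matches each, GAST and GNRH2 hold 0, and 47.4% of all promoters hold at least 1. Of the members not printed, VIP holds 4 matches, TAC1 2, MLN 1 and TRH 0. The longer homeodomain motif TAATTA, which contains TAAT on both strands, is in TAC1 alone among the members and in 4.35% of promoters. GIP, CCK, GAST and GNRH2, with 7, 2, 0 and 0 matches to TAAT, were all lower in PAX6-/- and PDX1-/- cells, as described below. Whether the number of matches bears on this was not tested. TGACG, the half-site of the cAMP response element, was searched on both strands and is present 2 times each in NTS, VIP and TRH and 1 time each in MLN, TAC1 and GNRH2. At least 1 match is thus in 6 of the 9 members with a promoter, against 21.2% of all promoters. These matches describe letters in a window, and binding was not measured.

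**Figure D1:**
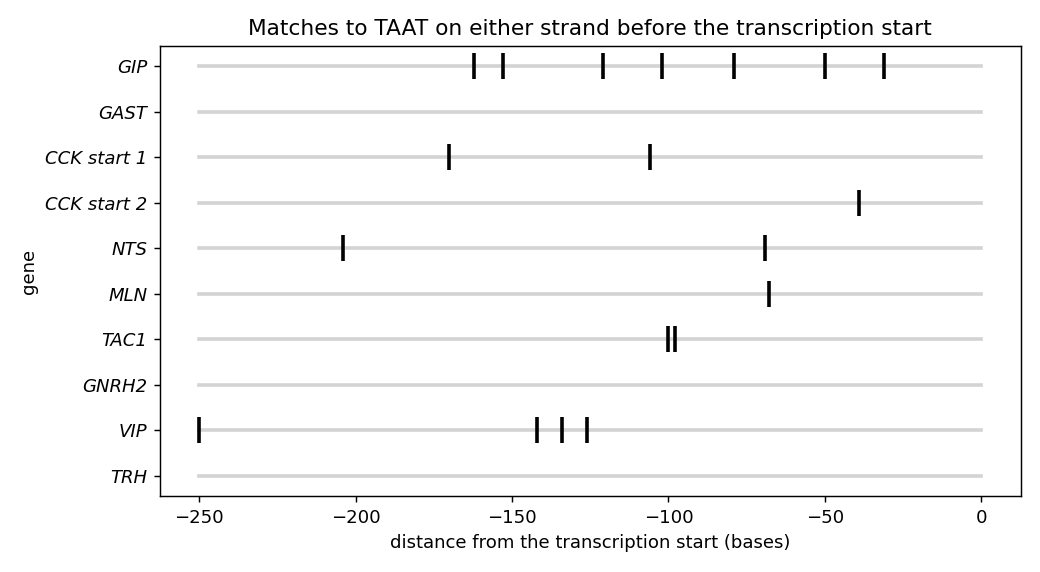
Positions of TAAT matches on either strand in the 250 bases before each RefSeq start (x axis, distance from the start in bases; 1 line per promoter, 1 tick per match). GIP has 7 ticks, VIP 4, and GAST, GNRH2 and TRH have 0.

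Scaled by gene length as well as depth (RPKM), GAST led the members in BFP-labelled WT and BFP-labelled PAX6-/- cells. With the same label, CCK overlapped with GAST in ISL1-/- cells and SCT was above GAST in PDX1-/- cells. GAST was 66.4% to 75.8% of the members' summed RPKM in BFP-labelled WT libraries. CCK was 10.3% to 13.4% there, and GIP 4.18% to 11.1%. In BFP-labelled ISL1-/- libraries the shares of GAST, 31.0% to 46.9%, and CCK, 35.4% to 47.5%, overlapped. SCT had 31.0% to 46.7% in BFP-labelled PDX1-/- libraries, above the 19.5% to 24.1% of GAST. GAST had 47.7% to 61.8% in BFP-labelled PAX6-/- libraries, beside 13.4% to 26.1% for NTS and 12.0% to 17.4% for SCT. The summed RPKM of the 10 genes was 658 to 1032 in BFP-labelled WT libraries, 268 to 347 in ISL1-/-, 84.1 to 98.8 in PAX6-/- and 60.8 to 75.2 in PDX1-/-. Libraries of bulk sorted cells cannot tell fewer hormone cells from less RNA per cell.

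**Figure D2:**
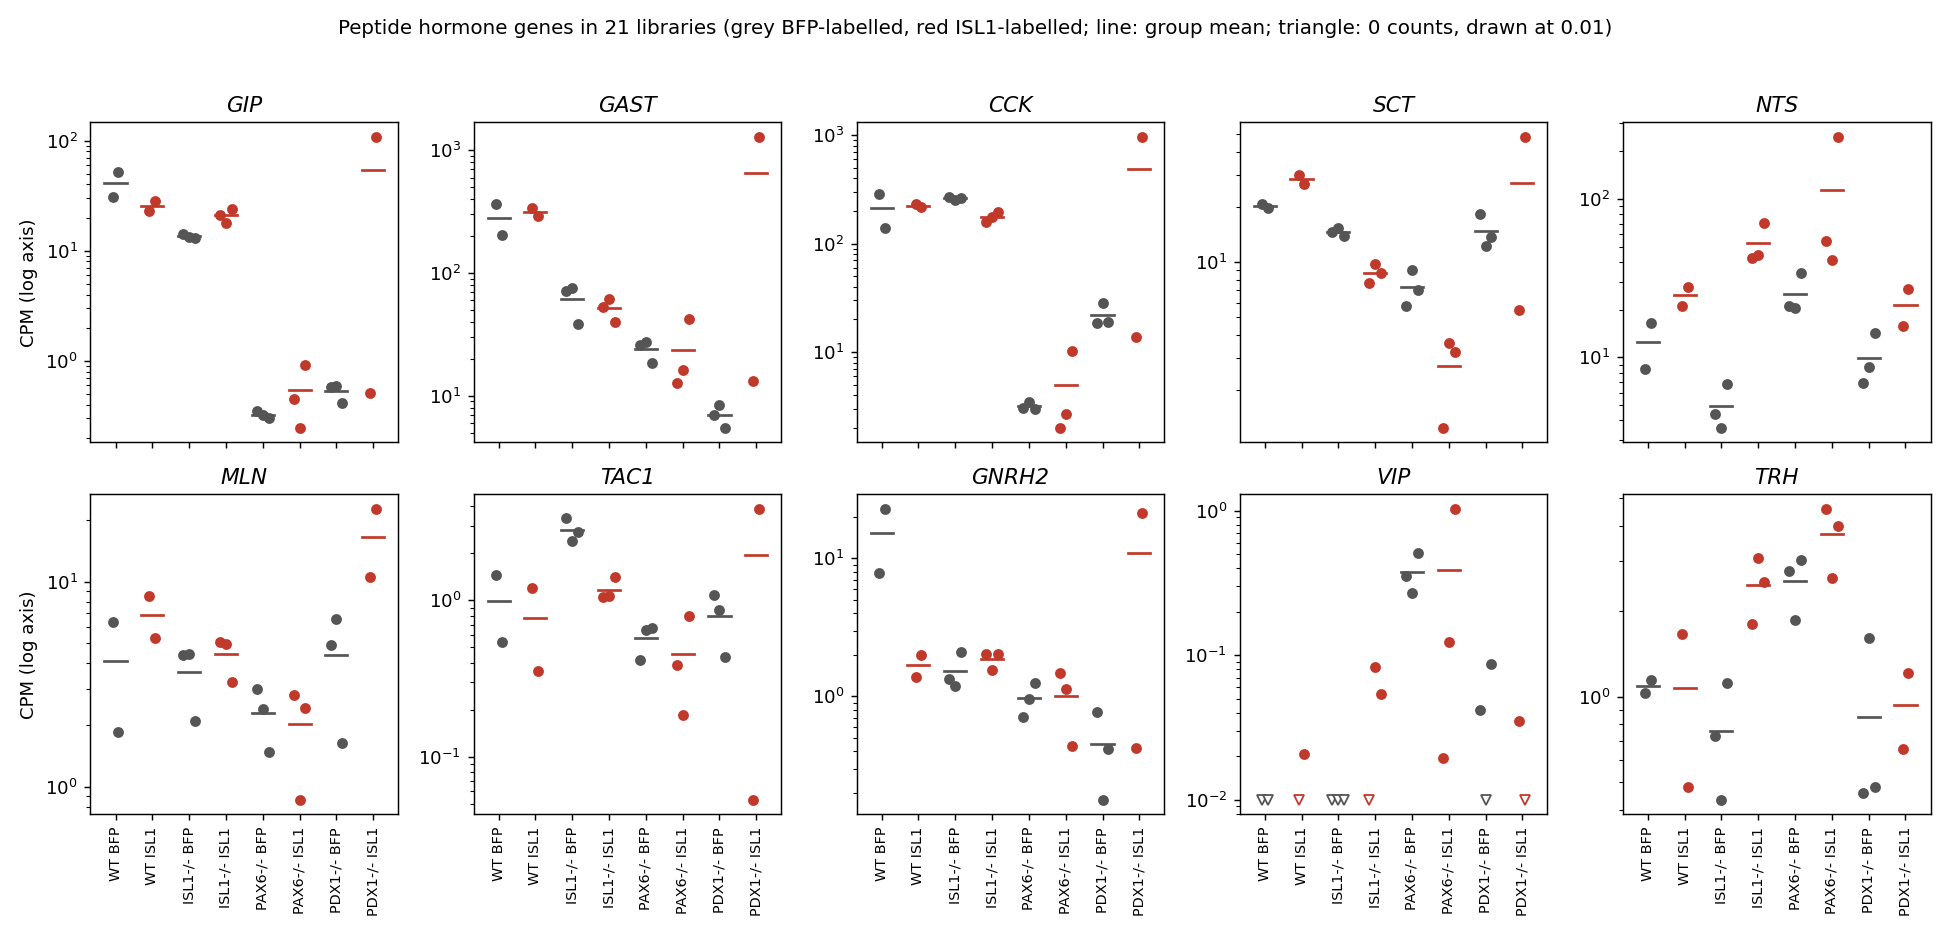
CPM of each gene (log y axis) in the 21 libraries by group (x axis), grey for BFP-labelled and red for ISL1-labelled libraries, with a line at the group mean and open triangles for 0 counts. GIP, GAST, CCK and GNRH2 lie below BFP-labelled WT in the PAX6-/- and BFP-labelled PDX1-/- groups, and each has 1 high point, replicate 4, in the ISL1-labelled PDX1-/- group.

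The first comparisons ask what each knockout did to these genes in BFP-labelled cells, against BFP-labelled WT cells, using edgeR's quasi-likelihood test over the 25884 genes with enough counts and a Benjamini-Hochberg adjusted p under 0.05. All 10 members passed the count filter, VIP through the PAX6-/- libraries. The 3 comparisons share the same 2 WT libraries. Of the 10 members, 4 fell in PAX6-/- cells (GIP, CCK, GAST and GNRH2), where 5.51% of all genes were called, 2.25% higher and 3.26% lower. GIP, CCK, GAST and GNRH2 also fell in PDX1-/- cells, where 9.68% of all genes were called, 4.03% higher and 5.65% lower. In ISL1-/- cells 1 member fell, GNRH2, where 5.59% of all genes were called, 1.67% higher and 3.92% lower. None of the 10 rose in any of the 3.

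GIP, on chromosome 17 at 48958554 to 48968596, had 30.9 and 52.3 CPM in the BFP-labelled WT libraries. It had 0.353, 0.321 and 0.302 CPM in PAX6-/- and 0.581, 0.589 and 0.415 CPM in PDX1-/- libraries. ISL1-/- libraries had 14.3, 13.2 and 13.0 CPM, lower than every WT library and above every library of the other 2 knockouts. GIP fell by 6.99 on the log2 scale in PAX6-/- cells (SE 1.15, edgeR adjusted p = 0.00219) and by 6.29 in PDX1-/- cells (SE 1.11, edgeR adjusted p = 0.00191). Both were called in all 29 alternative fits. The ISL1-/- difference of -1.62 was not called (edgeR adjusted p = 0.367). It was called in 6 of the 29 alternative fits. These included the fits without ISL1-labelled PDX1-/- replicate 2 or 4, libraries that are not in this comparison but enter the shared estimate of spread.

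CCK, on chromosome 3 at 42257825 to 42266185, had 286 and 139 CPM in WT and 268, 252 and 263 in ISL1-/- libraries, which overlapped. PAX6-/- libraries had 3.05, 3.50 and 2.99 CPM and PDX1-/- libraries 18.5, 28.4 and 18.8. CCK fell by 6.06 in PAX6-/- cells (SE 1.02, edgeR adjusted p = 0.00243), a call that held in all 29 alternative fits. In PDX1-/- cells it fell by 3.28 (SE 0.91, edgeR adjusted p = 0.0289). Leaving out any 1 of the 5 libraries compared ended that call, with an edgeR adjusted p up to 0.226.

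GAST, on chromosome 17 at 41712331 to 41715969, had 364 and 203 CPM in WT libraries. Its ISL1-/- libraries had 72.1, 75.3 and 38.7 CPM, its PAX6-/- libraries 26.1, 27.4 and 18.6 and its PDX1-/- libraries 7.02, 8.43 and 5.50, and no 2 of these 4 groups overlapped. GAST fell by 5.34 in PDX1-/- cells (SE 1.00, edgeR adjusted p = 0.00284), in all 29 alternative fits. It fell by 3.56 in PAX6-/- cells (SE 0.93, edgeR adjusted p = 0.0322), and leaving out any 1 of the 5 libraries ended the call (up to 0.201). The ISL1-/- difference was -2.19 and not called (edgeR adjusted p = 0.178). It was called in 7 of the 29 alternative fits, among them those without ISL1-labelled PDX1-/- replicate 2 or replicate 4.

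GNRH2, on chromosome 20 at 3043622 to 3045747, encodes gonadotropin-releasing hormone 2, a peptide related to the brain hormone that drives the pituitary gonadotropes. It had 7.89 and 22.8 CPM in BFP-labelled WT libraries and 0.179 to 2.1 in the 9 BFP-labelled knockout libraries. It was lower in each knockout, by -5.08 in PDX1-/- (SE 0.97, edgeR adjusted p = 0.00326, called in all 29 alternatives), -3.97 in PAX6-/- (SE 0.92, 0.0178) and -3.31 in ISL1-/- (SE 0.89, 0.0366). Leaving out 1 PAX6-/- library, whichever it was, or WT replicate 3 ended the PAX6-/- call (up to 0.190). The ISL1-/- call was lost without any 1 of its own 5 libraries (up to 0.333), without ISL1-labelled ISL1-/- replicate 2 (0.0501) and without ISL1-labelled WT replicate 1 (0.0519). The 2 WT libraries differed widely from each other, and ISL1-labelled WT libraries had only 1.39 and 1.98 CPM.

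The remaining 6 genes did not pass the test in these 3 comparisons. SCT, on chromosome 11 at 626309 to 627181, had 20.9 and 19.9 CPM in WT, 14.7, 15.4 and 13.9 in ISL1-/- and 18.4, 12.3 and 13.7 in PDX1-/- libraries. It was lowest in PAX6-/- libraries, at 5.72, 9.03 and 7.07 CPM, with no overlap with the other BFP-labelled groups. That difference from WT was -1.49 (SE 0.54, edgeR adjusted p = 0.129). It was called in 7 of the 29 alternative fits, among them those without ISL1-labelled PDX1-/- replicate 2 or replicate 4. MLN, the motilin gene on chromosome 6 at 33794673 to 33804003, whose peptide drives gut contractions between meals, had 1.84 to 6.39 CPM in WT and 1.47 to 6.57 over the 9 knockout libraries. An unnamed gene on the other strand overlaps MLN and had 0 to 25 counts per library, and the strand setting of the counting is not given in the sources used here.

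NTS, the neurotensin gene on chromosome 12 at 85874295 to 85882992, had 8.50 and 16.5 CPM in WT and 6.91, 8.70 and 14.2 in PDX1-/- libraries. PAX6-/- libraries had 21.0, 20.6 and 34.1 CPM, all above WT, and ISL1-/- libraries had 4.37, 3.60 and 6.78, all below WT. Against WT neither was called (1.01, edgeR adjusted p = 0.401, and -1.34, 0.208). The PAX6-/- difference was called in 2 of the 29 alternative fits. The ISL1-/- difference was called in 6, among them the fit without ISL1-labelled PAX6-/- replicate 3 (edgeR adjusted p = 0.0354). Between these 2 knockouts NTS was lower in ISL1-/- by -2.36 (SE 0.55, edgeR adjusted p = 0.0252), a comparison in which 2.46% of all genes were called, 0.757% higher and 1.70% lower in ISL1-/-. That call was lost without any 1 of the 3 ISL1-/- libraries or PAX6-/- replicate 1 or 3 (up to 0.142).

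TAC1, on chromosome 7 at 97732084 to 97740472, encodes substance P and neurokinin A, peptides of enterochromaffin cells and sensory neurons. It had 3.38, 2.41 and 2.75 CPM in ISL1-/- libraries, above 1.45 and 0.544 in WT, 0.415, 0.642 and 0.662 in PAX6-/- and 1.08, 0.875 and 0.437 in PDX1-/-. TRH, the thyrotropin-releasing hormone gene on chromosome 3 at 129974688 to 129977935, had 2.78, 1.86 and 3.02 CPM in PAX6-/- libraries, above 1.03 and 1.15 in WT, 0.726, 0.433 and 1.12 in ISL1-/- and 0.457, 1.61 and 0.481 in PDX1-/-. Neither gene was called between any 2 BFP-labelled groups in the main fit. Of the 29 alternative fits, TAC1 was called in 6 for ISL1-/- over PAX6-/-, 6 for ISL1-/- over PDX1-/- and 3 for ISL1-/- over WT. TRH was called in 6 for ISL1-/- over PAX6-/-, 5 for PAX6-/- over PDX1-/- and 1 for PAX6-/- over WT.

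VIP, on chromosome 6 at 152750797 to 152759765, encodes vasoactive intestinal peptide, best known from enteric neurons. It was counted in 12 of 21 libraries. Counts were 17, 15 and 27 in BFP-labelled PAX6-/- libraries and 1, 8 and 49 in ISL1-labelled ones, and 0 to 5 in each of the other 15. BFP-labelled WT and ISL1-/- libraries all had 0 counts. With a chosen floor of 3 counts per library in the groups at 0, VIP was at least 4.82-fold higher in PAX6-/- than in WT. Against ISL1-/- it was at least 7.45-fold higher by the same floor. A count of 0 does not exclude a level above that floor. VIP passed the count filter only through the PAX6-/- libraries, so these bounds are a description with no test. The floor covers counting error only.

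**Figure D3:**
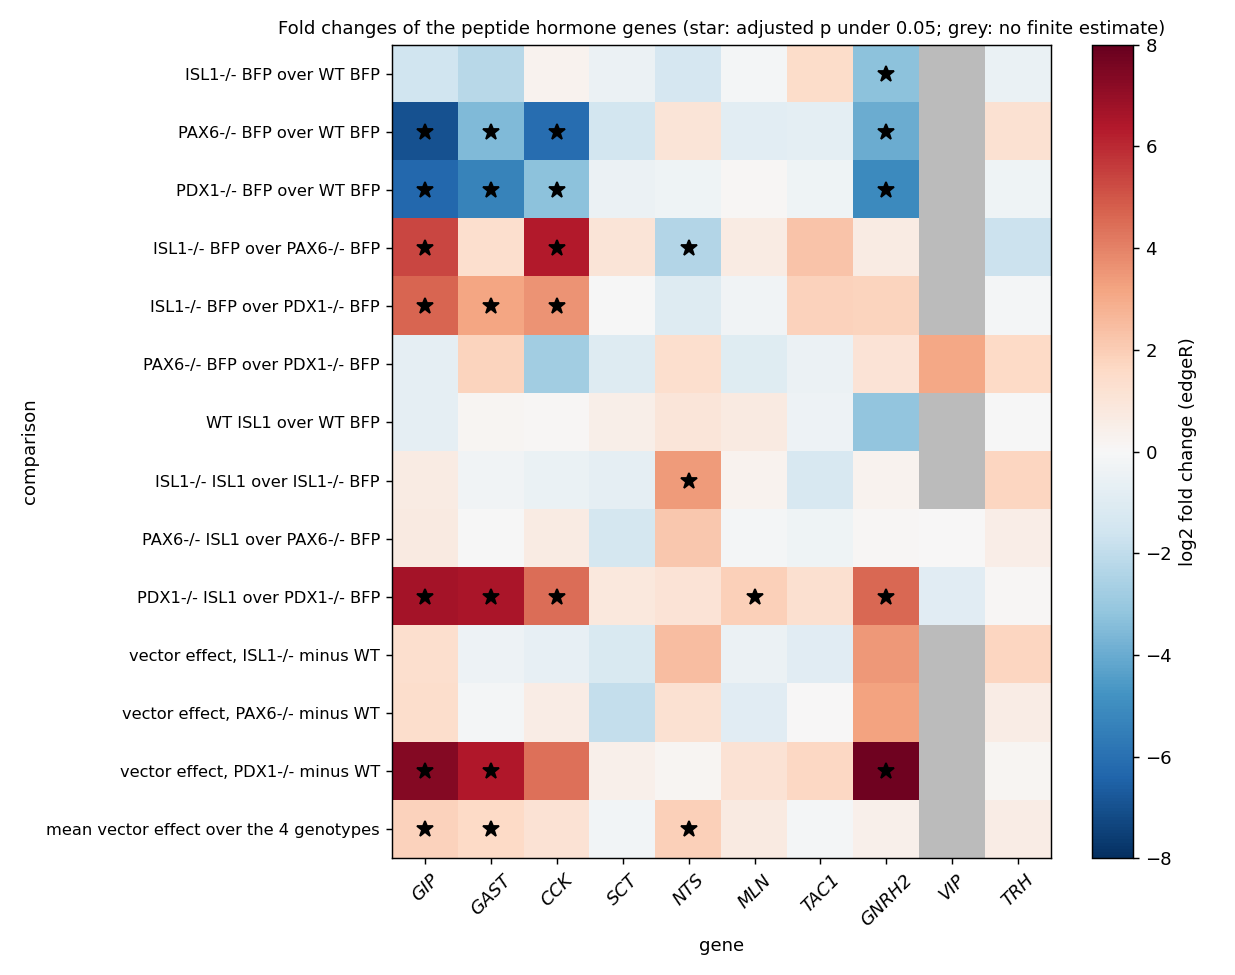
edgeR log2 fold changes (color scale) of the 10 genes (x axis) in 14 comparisons (y axis), with a star where the adjusted p is under 0.05 and grey where a group at 0 counts leaves no finite estimate. GIP, GAST, CCK and GNRH2 are blue with stars in PAX6-/- and PDX1-/- over WT, and the stars of these genes in the PDX1-/- vector comparisons rest on replicate 4.

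Compared with each other, ISL1-/- cells had more CCK than PAX6-/- cells by 6.36 on the log2 scale (SE 1.00, edgeR adjusted p = 0.00142), called in all 29 alternative fits. GIP was higher by 5.37 (SE 1.06, 0.00836), lost without PAX6-/- replicate 1 (0.0515) or 3 (0.0553). Against PDX1-/- cells, where 5.07% of all genes were called (2.73% higher and 2.34% lower), ISL1-/- cells had more GIP (4.67, SE 1.01, edgeR adjusted p = 0.0115), CCK (3.57, SE 0.88, 0.0235) and GAST (3.15, SE 0.88, 0.0454). The GIP call was lost without PDX1-/- replicate 2 (0.0630) or 3 (0.0680), the CCK call without any 1 of the libraries compared other than ISL1-/- replicate 3 (up to 0.111), and the GAST call in 18 of the 21 fits that left out 1 library (up to 0.170). Between PAX6-/- and PDX1-/- cells 0 of the 10 were called, where 3.04% of all genes were (1.52% in each direction), although CCK was lower in every PAX6-/- library and GAST higher in every one. At an unadjusted p under 0.05 edgeR gave 5 of the 10, and at an adjusted p under 0.05 DESeq2 gave 2 and limma voom 6. Without ISL1-labelled PDX1-/- replicate 4 the CCK difference of -2.78 (edgeR adjusted p = 0.00076), the GAST difference of 1.79 (0.00789) and the SCT difference of -1.02 (0.0398) were called. These comparisons share libraries with each other and with those against WT.

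The second set of comparisons asks what the ISL1 vector did within each genotype. NTS was higher with the ISL1 label in every genotype, with no overlap between the 2 labels. WT libraries had 8.50 and 16.5 CPM with the BFP label and 21.3 and 28.0 with the ISL1 label. ISL1-/- libraries had 4.37, 3.60 and 6.78 against 42.3, 44.6 and 71.0. PAX6-/- libraries had 21.0, 20.6 and 34.1 against 54.3, 41.2 and 246, the highest of them replicate 3. PDX1-/- libraries had 6.91, 8.70 and 14.2 against 15.8 and 27.0.

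NTS rose by 3.42 in ISL1-/- cells (SE 0.57, edgeR adjusted p = 0.0098), where 0.382% of all genes were called (0.251% higher and 0.131% lower), and it was the 1 member of 10 called there. Leaving out 1 BFP-labelled ISL1-/- library, whichever it was, ended the call (up to 0.0960). In PAX6-/- cells the difference was 2.18 (SE 0.54, edgeR adjusted p = 0.116), with 0 of 10 members and 0.355% of all genes called (0.170% higher and 0.185% lower). With the description replicate number as a block over all libraries, it was 1.87 and called (edgeR adjusted p = 0.00741). That block matches the PAX6-/- libraries by number. It also gives ISL1-labelled PDX1-/- replicate 4, the only library numbered 4, a term of its own. The call therefore cannot be credited to the pairing alone. Without ISL1-labelled PAX6-/- replicate 3, the library with the most NTS, it was 0.92 (0.382), and without ISL1-labelled PDX1-/- replicate 4 it was 2.13 and called (0.0466). It was 0.98 in WT, where 0 of 10 members and 0.0270% of all genes were called, and 1.11 in PDX1-/- cells. At an unadjusted p under 0.05 edgeR gave 2 of the 10 members in PAX6-/- cells and 1 in WT. At an adjusted p under 0.05 DESeq2 gave 1 and 0, and limma voom 3 and 1. Averaged over the 4 genotypes, a comparison chosen after seeing the data, NTS was higher with the ISL1 label by 1.92 (SE 0.29, edgeR adjusted p = 0.000541), where 9.61% of all genes were called, 5.31% higher and 4.30% lower. This held in all 29 alternative fits, with an edgeR adjusted p up to 0.00407. A difference of the NTS effect between genotypes was not called (ISL1-/- minus WT 2.44, edgeR adjusted p = 1.000, with 0.00386% of all genes called, and PAX6-/- minus WT 1.20, 0.894, with 0.00%). At an unadjusted p under 0.05 edgeR gave 3 and 2 members for these 2 differences, and at an adjusted p under 0.05 DESeq2 gave 0 and 0 and limma voom 2 and 2.

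The measured SCT difference between labels varied in sign by genotype. SCT was higher with the ISL1 label in WT, at 30.1 and 26.6 CPM, and lower without overlap in ISL1-/-, at 7.70, 9.75 and 8.75, and in PAX6-/-, at 1.24, 3.60 and 3.23. In PDX1-/- cells the ISL1-labelled libraries disagreed, with 5.48 CPM in replicate 2 and 48.4 in replicate 4. These lay below and above the BFP-labelled range of 12.3 to 18.4. In PAX6-/- cells the difference was -1.43 (SE 0.51, edgeR adjusted p = 0.319). It was -1.45 and called with the replicate block (edgeR adjusted p = 0.0194), and -1.46 without ISL1-labelled PDX1-/- replicate 4. That block gives replicate 4 a term of its own, so these fits are not separate support. The differences between genotypes were not called (-1.22 for ISL1-/- and -1.91 for PAX6-/- against WT, edgeR adjusted p = 1.000 and 0.894). TAC1 was lower with the ISL1 label in ISL1-/- libraries, 1.05, 1.06 and 1.40 CPM, without overlap and without a call (-1.28). TRH was higher there, at 1.81, 3.07 and 2.54 CPM, also without overlap (1.70, SE 0.51, edgeR adjusted p = 0.227). In ISL1-/- cells the SCT, TAC1 and TRH differences were each called in 2 of the 29 alternative fits. GNRH2 was lower with the ISL1 label in both WT libraries by -3.18 (edgeR adjusted p = 0.806). It was called without ISL1-labelled PDX1-/- replicate 2 (0.0350) or 4 (0.0394).

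Outside PDX1-/- cells, GIP, CCK and GAST were not called between the 2 labels. GIP was lower with the ISL1 label in WT, at 22.9 and 28.2 CPM, and higher in ISL1-/-, at 21.3, 17.8 and 23.7 CPM, without overlap in either, and neither difference was called (-0.70 and 0.63, edgeR adjusted p = 1.000 for both). CCK was lower with the ISL1 label in ISL1-/-, at 158, 177 and 196 CPM, also without overlap and without a call (-0.56). In ISL1-/- cells the GIP and CCK differences were each called in 1 of the 29 alternative fits. GAST, at 341 and 290 CPM in ISL1-labelled WT and 53.1, 61.8 and 39.8 in ISL1-labelled ISL1-/- libraries, overlapped with the BFP label in both. In ISL1-labelled PAX6-/- libraries GIP had 0.446, 0.247 and 0.922 CPM, CCK 2.02, 2.72 and 10.3 and GAST 12.8, 16.3 and 42.0, the highest of each in replicate 3, and all 3 overlapped with the BFP label. MLN overlapped between labels in these 3 genotypes.

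**Figure D4:**
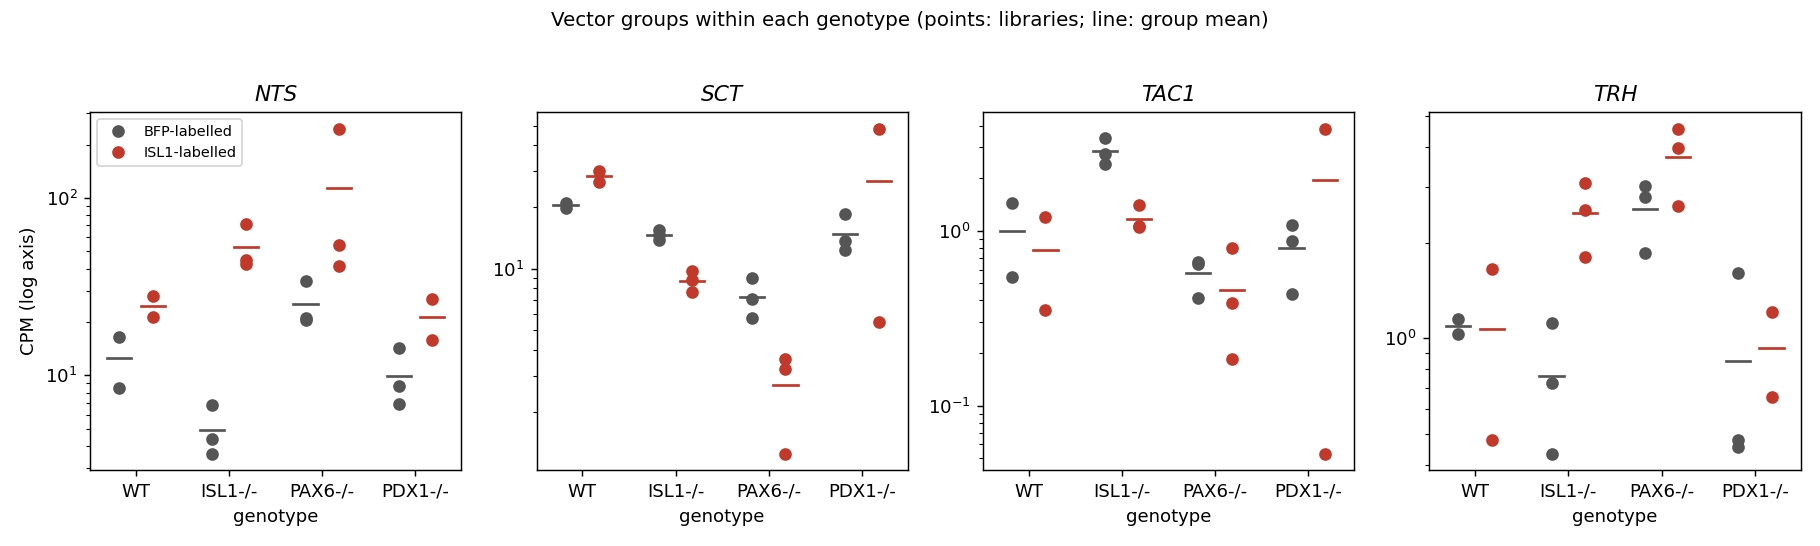
CPM (log y axis) of NTS, SCT, TAC1 and TRH by genotype (x axis), grey for BFP-labelled and red for ISL1-labelled libraries, with lines at group means. All NTS points with the ISL1 label lie above those with the BFP label of the same genotype, while SCT is higher with it in WT and lower in ISL1-/- and PAX6-/-.

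In PDX1-/- cells the 2 ISL1-labelled libraries disagreed for most members. Replicate 2 had 0.511 CPM of GIP, 13.3 of GAST, 13.9 of CCK and 0.423 of GNRH2, inside the range of the BFP-labelled PDX1-/- libraries for GIP and GNRH2, above it for GAST and below it for CCK. Replicate 4 had 108, 1285, 961 and 21.4 CPM of these genes, above every WT library for GIP, GAST and CCK and within the BFP-labelled WT range for GNRH2. For MLN both libraries, at 10.6 CPM in replicate 2 and 22.6 in replicate 4, lay above the BFP-labelled PDX1-/- range of 1.64 to 6.57. With both, 5 of 10 members rose, where 12.5% of all genes were called (8.19% higher and 4.33% lower): GIP by 6.67, GAST by 6.54, GNRH2 by 4.59, CCK by 4.48 and MLN by 1.91 (edgeR adjusted p = 0.00167, 0.00125, 0.00646, 0.0069 and 0.043). The MLN call held in 8 of the 21 fits that left out 1 library. Without replicate 4, with the lone library assumed to vary like the other groups, 0 of 10 were called by edgeR, and TAC1 and SCT were the 2 at an unadjusted p under 0.05. The differences were then -0.05 for GIP, 0.93 for GAST, -0.08 for GNRH2, -0.65 for CCK and 1.27 for MLN (edgeR adjusted p = 0.985, 0.450, 0.983, 0.727 and 0.452). TAC1 had 0.0529 CPM in replicate 2 and 3.85 in replicate 4, so its difference went from 1.26 to -3.85, called with neither. The PDX1-/- effect exceeded the WT effect for GIP, GAST and GNRH2 (by 7.37, 6.38 and 7.77 on the log2 scale, edgeR adjusted p = 0.0267, 0.0371 and 0.0156), where 1.19% of all genes were called (0.993% higher and 0.197% lower), and for 0 members without replicate 4. In the mean over genotypes GIP and GAST were called too (1.82 and 1.60, edgeR adjusted p = 0.0262 and 0.0305), but these rested on replicate 4. Without it the means were 0.13 for GIP and 0.18 for GAST. The mean for SCT went from -0.21 to -0.80 and that for TAC1 from -0.19 to -1.48.

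**Figure D5:**
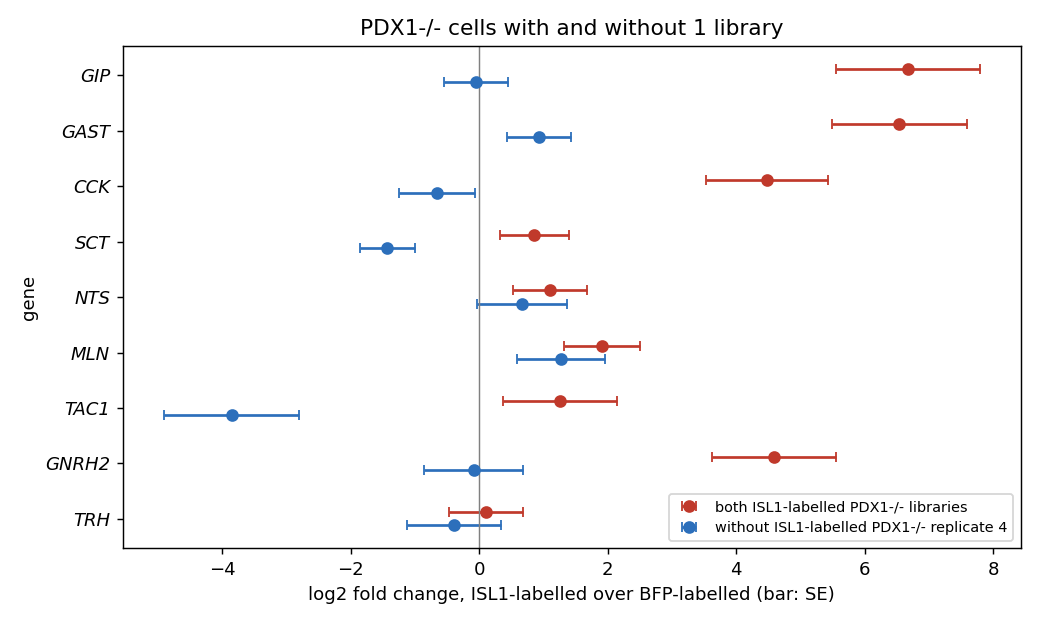
edgeR log2 fold change (x axis, bar 1 SE) of 9 genes (y axis) in ISL1-labelled over BFP-labelled PDX1-/- cells, with both ISL1-labelled libraries in red and without replicate 4 in blue. GIP, GAST, CCK and GNRH2 lie between 4.48 and 6.67 in red and between -0.65 and 0.93 in blue.

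Over all 21 libraries, the genes whose centred log2 CPM profiles lay nearest to those of the members, by mean absolute difference, included islet hormones. INS was nearest to GAST (0.51), and UCN3, urocortin 3, nearest to GIP (0.67). GIP was nearest to CCK (0.79). FABP1, a fatty acid-binding protein of liver and gut, was nearest to GNRH2 (0.50), PGF, a placental growth factor, nearest to SCT (0.36), and RIPPLY3, a transcriptional repressor, nearest to NTS (0.57). For the remaining members no islet hormone was nearest: GPR20 was nearest to TRH (0.49), and unnamed genes to MLN (0.49), TAC1 (0.59) and VIP (0.56). Replicate 4 of the ISL1-labelled PDX1-/- group is high in the GIP, GAST, CCK and GNRH2 profiles. Over the 20 libraries without it, INS was still nearest to GAST (0.50), GIP to CCK (0.82), PGF to SCT (0.38) and RIPPLY3 to NTS (0.55). UCN3 came second to TRIM61 for GIP (0.68 against 0.66), and FABP1 second to LGI4 for GNRH2 (0.52 against 0.49). The profiles share libraries and depth.

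Of 15 genes for receptors of the members, 11 had enough counts, and 1 was called higher and 1 lower in ISL1-/- cells, 0 in PAX6-/- cells and 1 higher in PDX1-/- cells. CCKBR, the receptor of gastrin and cholecystokinin, was at 6.62 to 8.83 CPM in BFP-labelled WT libraries and at a mean of 24.8 ± 0.785 CPM (SD, n = 3) in PDX1-/- ones, and rose by 1.68 (SE 0.27, edgeR adjusted p = 0.00101). VIPR2, a VIP receptor, rose by 2.21 (SE 0.39, edgeR adjusted p = 0.00245) and TACR3, a tachykinin receptor, fell by 3.47 (SE 0.44, edgeR adjusted p = 0.000184) in ISL1-/- cells. TACR1, the substance P receptor, was at 12.1 to 15.7 CPM in PAX6-/- libraries, against 2.81 to 3.26 in ISL1-/-, lower in the latter by -2.20 (SE 0.44, edgeR adjusted p = 0.00898).

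Of 6 tested relatives of the members, the secretin-family gene GCG fell in ISL1-/- cells by 9.03 and in PAX6-/- cells by 10.06 (edgeR adjusted p = 0.000211 and 0.000151), and GNRH1 fell in PAX6-/- and PDX1-/- cells by 1.95 and 1.87 (0.0158 and 0.0119). GHRL, ghrelin, a relative of motilin, had 2517 to 3771 CPM in BFP-labelled PAX6-/- libraries against 74.5 to 83.6 in WT and rose by 5.36 (edgeR adjusted p = 0.000627), while MLN itself did not pass the test. Of 14 other peptide hormone genes tested, 5 fell in ISL1-/-, 6 fell and 1 rose in PAX6-/- and 3 fell in PDX1-/- cells, with median log2 differences of -2.64, -1.61 and -1.69 against 0.02, 0.03 and 0.03 over all genes. INS, for one, fell by 5.46 in PDX1-/- cells (edgeR adjusted p = 0.00361). The medians of the 10 members were -0.50, -1.17 and -0.40.

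Of 10 prohormone processing genes, 3 fell in ISL1-/- cells, among them QPCT, which forms the pyroglutamate end of peptides such as gastrin and neurotensin, and 1 fell in PAX6-/- cells. In PDX1-/- cells the convertase PCSK1 rose by 1.98 (edgeR adjusted p = 0.0279) and PCSK2 fell by 0.76 (0.0424). Of 19 enteroendocrine transcription factors, 2 rose and 4 fell in ISL1-/-, 4 rose and 2 fell in PAX6-/- and 5 rose and 4 fell in PDX1-/- cells. The homeobox gene HHEX and the ETS factor ETV1, named after their values were seen, fell in each of the 3 knockouts.

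Of 6 intestinal epithelium markers, 2 fell in ISL1-/-, 2 in PAX6-/- and 3 in PDX1-/- cells, with summed levels of 468 to 547 CPM in WT, 259 to 311 in ISL1-/-, 234 to 304 in PAX6-/- and 250 to 298 in PDX1-/- libraries. Of 5 enterochromaffin markers, 4 rose in ISL1-/-, 1 in PAX6-/- and 5 in PDX1-/- cells, with sums of 844 to 979 CPM in WT, 2160 to 2907, 1309 to 2121 and 3581 to 4232. None of either list was at 0 throughout a group. General endocrine markers summed to 22540 to 27684 CPM in WT, 26674 to 36740 in ISL1-/-, 17584 to 30062 in PAX6-/- and 49358 to 55354 in PDX1-/-, with 1 of 7 called, INSM1 in PDX1-/-. Most of each sum was CHGA, which was not called, at 19716 to 24037 CPM in WT and 43304 to 48895 in PDX1-/-. Neuron markers, relevant to VIP and TAC1, summed to 156 to 164 CPM in WT, 51.3 to 78.1 in ISL1-/-, 88.1 to 136 in PAX6-/- and 52.6 to 55.7 in PDX1-/-, with 0 called in ISL1-/- and PAX6-/- cells, and CHAT was at 0 in the WT and ISL1-/- groups. NEFM made up most of each neuron sum, at 129 to 148 CPM in WT. Of gastric markers, 3 of 5 were tested, and 1 rose in PAX6-/- and 2 in PDX1-/- cells. Their sums were 9.20 to 10.0 CPM in WT, 15.8 to 18.1 in ISL1-/-, 32.2 to 52.2 in PAX6-/- and 43.9 to 61.3 in PDX1-/-. GKN1 was at 0 in all 4 groups. Duct and acinar markers (6) and mesenchyme markers (6) had 0 called against WT, and of pluripotency markers 1 of 3 tested fell, in PAX6-/- cells. The part of any of these in the hormone differences was not tested.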

How the data were processed

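RNA from 21 libraries of sorted BFP-positive cells was sequenced (SMART-Seq v4 with KAPA EvoPrep, per the labels' protocols). The submitters' processing notes name STAR 2.7.11b, featureCounts 2.1.1 and GRCh38. The authors deposited 1 table of raw read counts per gene. Annotation release, strand setting and treatment of multiply mapped reads are not given in the sources used here. 1 entry of the 62700, broken over 3 lines, was left out, and 62699 were used, all matched to a symbol.

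The counts were tested with edgeR 4.0.16 in R 4.3.3 (TMM factors, filterByExpr with a minimum count of 10 and total of 15, 1 quasi-likelihood model over all 8 groups with no block), with Benjamini-Hochberg adjustment over the 25884 genes tested and calls at an adjusted p under 0.05. The scripts were tested on simulated data. Alternatives were other size factors, no filter, DESeq2 1.42.0, limma 3.58.1 voom with quality weights, only the groups compared, replicate blocks and leaving out each library. A fit without the 2 libraries richest in mitochondrial counts, nearest profiles without 1 library, and the mean vector effect, which made 14 comparisons from 13, were added after seeing the data. All members were named in each comparison, with the nearest profile for each and up to 3 called genes for each list. The members and lists were chosen with earlier results of these data known.

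Description and title numbers differ for 3 libraries. By description number, the deviations of PAX6-/- libraries with the same number correlated at 0.155, 0.391 and 0.333. ISL1-/- libraries had 0.183, 0.099 and 0.293, which overlap the PAX6-/- values. WT had -0.0394 and PDX1-/- had -0.212. These correlations do not settle which libraries are paired, and the main fit uses no pairing in any genotype. The replicate blocks were alternatives and covered all libraries. A result of the neuron marker list is not reported here.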

Additional observations from a re-analysis of the deposited data

Results flagged for a closer look

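Of the members, 3 had a vector effect that differed between genotypes by a test of the difference itself, PDX1-/- minus WT, in edgeR's quasi-likelihood fit. The log2 differences were 7.37 for GIP (SE 1.55, edgeR adjusted p = 0.0267), 6.38 for GAST (SE 1.43, 0.0371) and 7.77 for GNRH2 (SE 1.45, 0.0156). Without ISL1-labelled PDX1-/- replicate 4 they were 0.66 for GIP (0.966), 0.79 for GAST (0.958) and 3.11 for GNRH2 (0.253). Calls held in 13, 5 and 17 of the 21 fits that left out 1 library.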

How the results depend on the processing

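The number of the 10 members called was recomputed under each alternative. In the order ISL1-/-, PAX6-/- and PDX1-/- over WT, ISL1-/- over PAX6-/-, ISL1-/- over PDX1-/-, PAX6-/- over PDX1-/-, vector in WT, ISL1-/-, PAX6-/- and PDX1-/-, the 3 vector differences from WT in the same order, and the mean vector effect, the counts were 1, 4, 4, 3, 3, 0, 0, 1, 0, 5, 0, 0, 3 and 3. Leaving out 1 library gave ranges of 0 to 3, 2 to 5, 3 to 4, 1 to 6, 0 to 5, 0 to 3, 0 to 1, 0 to 1, 0 to 2, 0 to 7, 0 to 0, 0 to 0, 0 to 5 and 1 to 4. Counts that moved by over 1.5 times were as follows, and the cause was not tested. With no filter, ISL1-/- over WT gave 2, ISL1-/- over PAX6-/- 5, PAX6-/- over PDX1-/- 1 and the PAX6-/- vector 1. DESeq2 gave 5, 2 and 1 for the last 3 of these. limma voom gave 5 and 7 for ISL1-/- and PAX6-/- over WT, 8, 6 and 6 between knockouts, 1, 4, 3 and 0 for the 4 vector comparisons, 2, 2 and 0 for their differences and 1 for the mean. Only the groups compared gave 6 and 7 over WT, 8, 6 and 6 between knockouts, vector counts of 1 in WT, 6 in ISL1-/- and 0 in PDX1-/-, and differences of 2 for ISL1-/- and 0 for PDX1-/-. The replicate block by description number gave 4 and 7 over WT, 5, 6 and 4 between knockouts, 2 for the PAX6-/- vector, and 0 for the PDX1-/- vector and its difference. In that block ISL1-labelled PDX1-/- replicate 4, the only library numbered 4, has a term of its own. The replicate block by title number gave 1 for PAX6-/- over PDX1-/-, the PAX6-/- vector and the PDX1-/- difference. Without both libraries that stood apart, ISL1-/- over WT gave 5, the knockout pairs 8, 6 and 6, the vector 1 in WT, 1 in PAX6-/- and 2 in PDX1-/-, and the differences 1, 1 and 0.

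Of the 140 member values, 45 had the other sign in at least 1 alternative, 4 of them called and 41 not called. Those called on either side of the reversal follow. VIP in the PAX6-/- vector comparison was 0.03 and -2.91 by limma voom. In the PDX1-/- vector comparison, GIP ran from -0.048 without replicate 4 to 7.65 without replicate 2, CCK from -0.65 to 5.44 and GNRH2 from -0.084 to 5.56. CCK was -0.63 with the description block. Without both libraries that stood apart, GIP was -0.027, CCK -0.63 and GNRH2 -0.058. SCT was -1.41 and TAC1 -3.83 there, both called by edgeR (adjusted p = 0.0341 and 0.0168), and the mean vector effect was -0.020 for GIP and -0.40 for CCK. With 2 or 3 libraries a group and VIP at 49 counts or fewer, small differences were not detectable.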
